A study of Homo sapiens with 2 samples.

Results

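LIN28B and TERT are the 2 genes described here, chosen by name from the platform annotation, out of 14812 named genes on the array. They were selected on their difference between the same 2 arrays, which was known when the pair was chosen, so that difference is given as a description with no test. Each gene had 1 probe set, a group of short probes read as 1 value: 17011255 for LIN28B (gene identifier 389421, chromosome 6) and 16993919 for TERT (gene identifier 7015, chromosome 5). The samples were 2 cultures of BE(2)C, an established human neuroblastoma line whose MYCN gene is amplified. One received an siRNA against MYCN (MYCN2, Qiagen) and the other non-targeting control siRNA (ONTARGETplus, Dharmacon), both with Lipofectamine 2000, and RNA was isolated 36 hours later. Each group is 1 array (Affymetrix Human Gene 2.0 ST), so no value has a replicate and no p-value is given. Both cultures carry the same genome, and the control was transfected too.

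LIN28B encodes an RNA-binding protein of embryonic and progenitor cells. It binds the precursors of the let-7 microRNAs and keeps them from being processed. Mature let-7 in turn represses many growth genes, among them LIN28B and MYCN, and LIN28B can drive neuroblastoma in animal models. TERT encodes the reverse transcriptase subunit of telomerase, which extends chromosome ends from the RNA template TERC. It is silent in most differentiated cells and active in stem cells and most tumours, and it is a textbook target of MYC proteins, which bind the E-box sequence CACGTG together with MAX.

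The promoter windows of both genes are shown because the E-box is the site that the targeted transcription factor is known to bind. Whether it has a part in the differences between the arrays was not tested. The windows come from RefSeq (GRCh38.p14) and run from 250 bases before to 50 bases after an annotated start. The RefSeq table gives LIN28B 2 starts, at chr6:104940715-104941014 (plus strand) and chr6:104956857-104957156 (plus strand), and TERT 1, at chr5:1295019-1295318 (minus strand). Capitals mark CACGTG, which reads the same on both strands.
LIN28B first window: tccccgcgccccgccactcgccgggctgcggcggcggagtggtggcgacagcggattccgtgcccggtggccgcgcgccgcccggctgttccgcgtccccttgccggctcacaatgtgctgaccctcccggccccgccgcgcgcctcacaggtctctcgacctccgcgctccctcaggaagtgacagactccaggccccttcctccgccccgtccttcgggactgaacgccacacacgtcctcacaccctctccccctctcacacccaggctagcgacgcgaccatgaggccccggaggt
LIN28B second window: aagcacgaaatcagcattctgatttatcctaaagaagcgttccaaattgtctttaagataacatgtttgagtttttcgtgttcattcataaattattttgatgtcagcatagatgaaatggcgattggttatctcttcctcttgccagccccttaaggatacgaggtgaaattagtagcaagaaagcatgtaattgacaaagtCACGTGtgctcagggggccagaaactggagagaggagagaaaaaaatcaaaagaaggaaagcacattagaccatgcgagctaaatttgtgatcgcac
TERT window: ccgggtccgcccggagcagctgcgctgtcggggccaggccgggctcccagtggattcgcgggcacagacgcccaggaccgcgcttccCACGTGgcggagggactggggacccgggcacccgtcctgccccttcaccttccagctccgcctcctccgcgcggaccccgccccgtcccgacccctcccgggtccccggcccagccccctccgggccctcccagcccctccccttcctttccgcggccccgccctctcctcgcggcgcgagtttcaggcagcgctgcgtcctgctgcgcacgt

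The first LIN28B window held no CACGTG. The second LIN28B window held 1, with 41 bases between it and the annotated start, and the TERT window held 1, with 157 bases between it and the start. The TERT window also ends on the letters CACGT, and the base after them lies outside it. Of 34943 RefSeq windows of 300 bases, 7.23% held CACGTG. Counted by gene, 8.74% of the 27167 genes with a window held it in at least 1. The windows also differed in base composition, with 73.0% G and C in the first LIN28B window, 39.0% in the second and 77.3% in the TERT window, against a median of 58.7% over all windows. GGGCGG, the GC box bound by SP1, was searched on both strands. It occurred 2 times in the first LIN28B window, 3 times in the TERT window and not in the second LIN28B window, and 44.9% of all windows held it. The array does not tell which LIN28B start was used, and a match of letters does not show that a factor was bound.

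The values are log2 RMA values, in which a step of 1 is a doubling. The median over all 46255 probe sets was 4.60 with control siRNA and 4.55 with MYCN siRNA, and values near these medians are not shown to be above background. Genes under the median in both arrays were left out as dim. A gene above the median in 1 array alone was kept, and its direction is then not independent of the filter. This left 10592 genes, whose median difference was 0.01 with an SD of 0.43, and 48.0% of them were lower in the MYCN siRNA array. Both LIN28B and TERT passed. The probe sets of 374 genes with more than 1 gave an SD of 0.32 per probe set for the difference, a yardstick that leaves out the spread between cultures and arrays. Of 10 sympathoadrenal marker genes, 8 had a named row and all 8 passed, from 6.47 to 10.6 in the control array and from 6.53 to 10.8 in the MYCN siRNA array. MYCN itself was not analysed here, so these values do not show how far it was reduced. Of 21 marker genes of fibroblasts, immune, endothelial, epithelial and Schwann cells, 10 had a named row and 7 passed, from 3.12 to 7.27 with control siRNA and from 3.83 to 9.00 with MYCN siRNA over the 10. Of these, CD68, a lysosomal protein of macrophages, went from 7.27 to 9.00, and S100B, a glial protein, from 5.90 to 6.92. LUM, a matrix protein of fibroblasts, went from 6.54 to 5.37. Each of these cell types had 1 other named marker. SOX10 (Schwann) went from 6.19 to 5.91 and so did not follow S100B. CD14 (immune) was at 4.02 in both arrays and DCN (fibroblast) went from 3.12 to 3.86. Both lay below the 2 medians and did not pass the filter, so their differences are not read. DBH, a sympathoadrenal marker, went from 9.32 to 10.8, but the median difference of the 8 sympathoadrenal markers was 0.10. Among them HAND2 and ISL1 were lower and the rest higher. The part of these markers in the differences below was not tested.

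LIN28B was at 9.50 with control siRNA and 8.18 with MYCN siRNA. The difference was −1.32 on the log2 scale, so the MYCN siRNA value was 40.1% of the control value on the linear scale, or 2.49-fold lower. This was 4.15 times the SD between probe sets. Both values lay far above the array medians, by 4.89 with control siRNA and 3.63 with MYCN siRNA. LIN28B ranked 38 from the lowest difference among the 10592 genes and 32 among the 9376 that code for proteins. Of 1330 other genes within 0.5 of its mean level of 8.84, 9 had a difference at or below that of LIN28B.

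TERT was at 5.94 with control siRNA and 5.40 with MYCN siRNA. The difference was −0.54, so the MYCN siRNA value was 68.8% of the control value, or 1.45-fold lower. This was 1.70 times the SD between probe sets. The probe set was dim, 1.34 above the median of the control array and 0.85 above that of the MYCN siRNA array, so its level with MYCN siRNA is not shown to be above background and the fold and percent are uncertain. TERT ranked 740 from the lowest, against 38 for LIN28B. Of 2344 other genes within 0.5 of its mean level of 5.67, 119 lay at or below it. After 16 was added to the linear values, which damps dim genes, the difference of TERT was −0.41.

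Of the 2 genes, LIN28B alone passed the 2-fold threshold for lower values, which 123 of the 10592 genes (1.16%) passed. Neither passed it for higher values, which 2.21% did. Since the pair was chosen with these values known, nothing is read from that count. The difference of LIN28B lay 0.78 below that of TERT on the log2 scale, against 0.45 for the SD expected between 2 probe sets of 1 gene. Whether the 2 genes differ in their response was not tested, since there is 1 array per group.

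**Figure D1:**
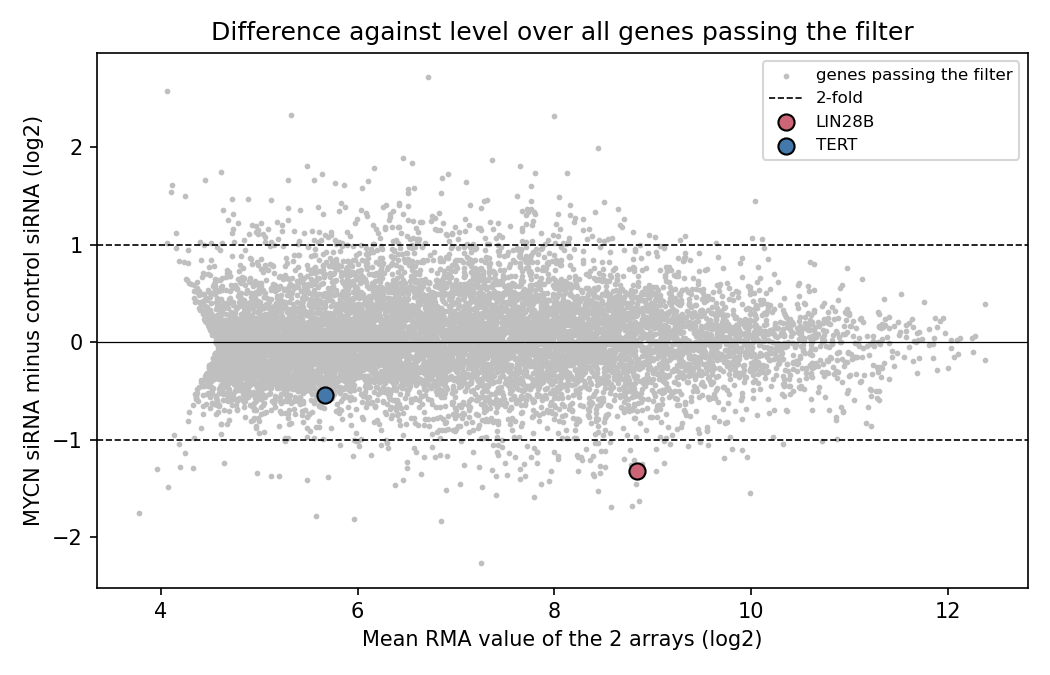
Difference between the arrays (MYCN siRNA minus control siRNA, log2) against the mean log2 value of the 2 arrays for the 10592 genes that passed the filter, 1 grey point per gene, with 2-fold marked by dashed lines. LIN28B (−1.32) lies below the lower line among few genes of its level, and TERT (−0.54) lies within the lines at the lower edge of a dense band.

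LIN28A, the paralog of LIN28B, was at 3.89 with control siRNA and 3.83 with MYCN siRNA, below both medians. It is therefore not shown to be above background in either, and its difference is not read. TERC, the RNA template that TERT copies, was at 9.69 with control siRNA and 9.67 with MYCN siRNA, a difference of −0.03 that was 0.02 after median centring. The difference of TERC lay 0.51 above that of TERT, close to the SD of 0.45 expected between 2 probe sets of 1 gene, so the 2 parts of the catalytic core are not shown to differ in response.

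LIN28B-AS1, a long non-coding RNA annotated on the opposite strand, differed in the other direction. In RefSeq its locus overlaps that of LIN28B, and its promoter window overlaps the first LIN28B window. It was at 7.26 with control siRNA and 8.04 with MYCN siRNA, a difference of 0.78 that ran from 0.72 to 0.83 under the other scalings. This was 2.45 times the SD between probe sets. The 2 overlapping loci thus lay on opposite sides of 0, LIN28B at −1.32 and LIN28B-AS1 at 0.78. The sources used here do not say which strand the probes read.

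**Figure D2:**
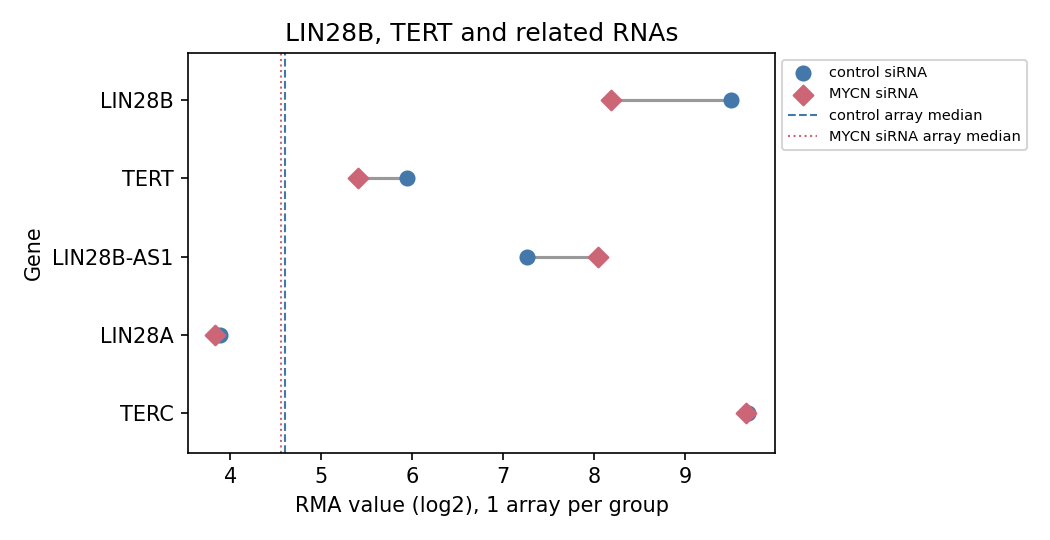
RMA values (log2) of LIN28B, TERT and 3 related RNAs in the control siRNA array (circles) and the MYCN siRNA array (diamonds), with the median of each array as a vertical line. LIN28B and TERT are lower with MYCN siRNA, LIN28B-AS1 is higher, TERC is nearly level and LIN28A lies below the medians in both.

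The genes on each side showed how far the surroundings of the 2 genes differed. These are the nearest genes with values in RefSeq order, up to 21 annotated genes from LIN28B and up to 18 from TERT. Before LIN28B on chromosome 6, in RefSeq order, ASCC3, a helicase subunit, was at 0.09 and HACE1, a ubiquitin ligase known as a tumour suppressor, at 0.28. After it, POPDC1 and POPDC3, both Popeye domain proteins of muscle membranes, were at −0.06 and −0.05. POPDC1-AS1 lay at 5.58 with control siRNA and 5.05 with MYCN siRNA, a difference of −0.54. None of these 6 neighbours, LIN28B-AS1 included, was as low as LIN28B, and 3 were lower and 3 higher.

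All 6 named neighbours of TERT on chromosome 5 were lower in the MYCN siRNA array, against 48.0% of all genes that passed the filter. With 6 genes nothing is read from that count, and 4 of them lay within 0.3 of 0. TRIP13, an ATPase of the spindle checkpoint, was at −0.26, and NKD2, an inhibitor of Wnt signalling, at −0.12. CLPTM1L, the coding gene nearest to TERT on its other side among those with values, was at −0.29, and LPCAT1, a phospholipid acyltransferase, at −0.13. The microRNA rows MIR4635 and MIR4457 were at −0.91 and −0.72, but MIR4457 was at 2.36 in the control array and did not pass the filter. MIR4635 was at 5.98 with control siRNA and 5.06 with MYCN siRNA. In the latter array it was dimmer than TERT and is not shown to be above background. The difference of TERT, −0.54, was thus larger than those of its 4 coding neighbours and smaller than those of the 2 microRNA rows, which are uncertain.

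**Figure D3:**
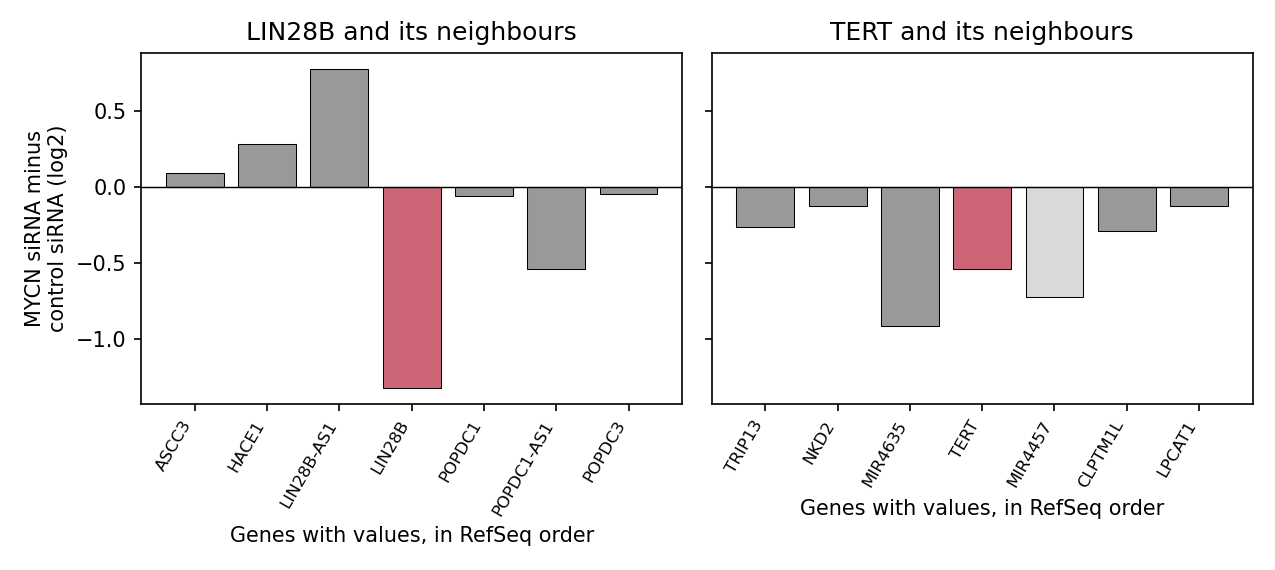
Difference (MYCN siRNA minus control siRNA, log2) of LIN28B, TERT and the 3 genes with values on each side, in RefSeq order along the chromosome; the member is in red, and the light bar (MIR4457) did not pass the filter. LIN28B (−1.32) stands below all 6 neighbours, while TERT (−0.54) lies among neighbours that are all below 0, 4 of them within 0.3 of 0.

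The let-7 sequences show what LIN28B acts on. All 9 let-7 family 5p strands in RefSeq share 1 seed, the bases 2 to 8 that pair with a target, given in capitals for let-7a, for let-7d and let-7g, and for miR-98, which is a family member under another name.
hsa-let-7a-5p: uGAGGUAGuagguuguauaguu
hsa-let-7d-5p: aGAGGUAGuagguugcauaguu
hsa-let-7g-5p: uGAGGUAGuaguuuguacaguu
hsa-miR-98-5p: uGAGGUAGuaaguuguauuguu

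LIN28 proteins grip the precursor at a GGAG in the loop side of the hairpin. Of the 12 let-7 family hairpins in RefSeq, 9 hold GGAG after the 5p strand and 3 do not. One of each is shown, with GGAG in capitals: let-7g at chr3:52268278-52268361 (minus strand) and let-7a-3 at chr22:46112749-46112822 (plus strand), both GRCh38.p14 and both with rows that passed the filter.
MIRLET7G: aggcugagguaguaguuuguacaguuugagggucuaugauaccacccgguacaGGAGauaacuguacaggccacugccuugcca
MIRLET7A3: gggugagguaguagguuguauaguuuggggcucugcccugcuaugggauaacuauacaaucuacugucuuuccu

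Of the 12 let-7 hairpin genes, 11 had a named row and 5 passed the filter. Their differences ran from −0.33 for MIRLET7G to 0.17 for MIRLET7D, with 3 lower and 2 higher and a median of −0.03. MIRLET7G was at 5.02 with control siRNA and 4.69 with MYCN siRNA, and MIRLET7A3 at 6.05 and 6.06. MIRLET7D was at 4.61 and 4.78, MIRLET7I at 5.02 and 4.97, and MIR98 at 5.07 and 5.04. No let-7 hairpin row that passed lay as far from 0 as TERT or LIN28B. However, all of them but MIRLET7A3 were dimmer than TERT in both arrays and lay close to the medians. Whether those dim rows hold signal beyond background is not known, so their small differences do not show that the transcripts stayed level. These rows read transcripts that hold the hairpin, and mature let-7, the form that LIN28B controls, was not analysed here.

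The genes of proteins that make and handle let-7 ranged from −1.02 for XPO5 to 0.13 for DGCR8. The list of let-7 processing genes and LIN28 partners has 36 entries, the hairpins among them, of which 22 had a named row and 14 passed the filter. Of these, 8 were lower and 6 higher, with a median of −0.04, against 48.0% lower and 0.01 for all genes. The list median was 0.01 after median centring and 0.02 after loess. The 8 of these that code for proteins were 5 lower and 3 higher. XPO5, which exports microRNA precursors from the nucleus, was the member past 2-fold, at 9.99 with control siRNA and 8.97 with MYCN siRNA. Of all genes that passed the filter, 1.16% were at least 2-fold lower, so with 14 genes nothing is read from that count. Its difference of −1.02 was −0.97 after median centring and −0.996 after quantile normalization, and so not past 2-fold there. DIS3L2, the exonuclease that degrades let-7 precursors tagged through LIN28, was at 7.64 and 7.60, and DGCR8, the partner of the nuclear microRNA processor, at 7.19 and 7.32. TARBP2, a partner of DICER, was at −0.40. DICER1, DROSHA, TUT4 and TUT7 had no named row here.

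The known let-7 targets differed by small amounts. Of 29 listed, 23 had a named row and 18 passed the filter, and 11 were lower, 6 higher and 1 had the same value in both arrays. The median was −0.13 (−0.08 after median centring and −0.06 with no filter), against 0.01 and 48.0% lower for all genes. None passed 2-fold, against 1.16% of all genes for lower values and 2.21% for higher, so nothing is read from that. INSR, the insulin receptor, was lowest, at 7.05 with control siRNA and 6.45 with MYCN siRNA (−0.60). ARID3B, a DNA-binding protein, was highest, at 6.88 and 7.51 (0.63). IGF2BP1, an oncofetal RNA-binding protein, was at 10.5 and 10.2, HMGA1, a chromatin protein, at 9.62 and 9.29, and IGF2BP3 at 7.93 in both. Of all genes that passed the filter, 123 (1.16%) also had the same value in both arrays. HMGA2, often used as the readout of let-7, was below both medians, at 4.31 and 3.98. MYC, counted as higher, passed the filter through the MYCN siRNA array alone, so its direction is not read.

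Among genes linked to LIN28B in neuroblastoma, AURKA, the mitotic kinase that stabilises MYCN protein, was at 8.27 with control siRNA and 8.09 with MYCN siRNA (−0.18). PLK1, another mitotic kinase, was at −0.31. Of the 5 listed, 4 passed the filter, from PDZK1IP1 at −0.44 to RANBP2, a nucleoporin that binds RAN, at 0.16. RAN had no named row here. The median of the 4 was −0.25, against 0.01 for all genes. None passed 2-fold, which 1.16% of all genes did for lower values and 2.21% for higher, so with 4 genes nothing is read from that.

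The protein and RNA partners of TERT were mostly lower, none of them by 2-fold, as 1.16% of all genes were. Only NHP2, TENT4B, NAF1 and RUVBL1 were lower by more than the SD of 0.32 per probe set. Of 19 listed telomerase components and assembly factors, 12 had a named row and all 12 passed. Of these, 10 were lower and 2 higher, with a median of −0.17 (9 lower and a median of −0.12 after median centring), against 48.0% lower and a median of 0.01 for all genes. NHP2, a protein of the H/ACA particle that holds TERC, was at 9.59 with control siRNA and 8.72 with MYCN siRNA (−0.87). NAF1, which assembles that particle, was at 8.20 and 7.54, and RUVBL1, an ATPase needed to assemble telomerase, at 9.38 and 8.80. TENT4B, a poly(A) polymerase that tags immature TERC for decay, was at −0.69. PARN, the nuclease that trims those tails and so protects TERC, was highest, at 9.11 and 9.32 (0.21). The other H/ACA core proteins with rows, NOP10 and GAR1, were at −0.13 and −0.21.

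Most of these partners also act outside telomerase, since the H/ACA particle modifies ribosomal RNA as well. NHP2, TENT4B, NAF1 and RUVBL1 lay below the difference of TERT, and the other 8 above it. Of the 12, 10 had a RefSeq promoter window, and 2 of those genes, GAR1 and NOP10, held CACGTG in at least 1 window, against 8.74% of the 27167 genes with a window. With 10 genes nothing is read from that count. NHP2, the lowest, held none in its windows.

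The proteins that cover telomeres went both ways. Of 13 shelterin, CST and associated genes listed, 8 passed the filter, with 4 lower and 4 higher and a median of 0.02 (−0.04 after quantile normalization and −0.01 after loess). STN1, a CST subunit that ends telomerase extension, was highest, at 6.72 with control siRNA and 7.53 with MYCN siRNA (0.81). TINF2, the shelterin hub, was at 7.93 and 8.58 (0.65). TERF2, which shields the chromosome end, was lowest at −0.20, and TERF1 was at −0.05. Over all genes 48.0% were lower, with a median of 0.01. None of the 8 passed 2-fold, against 1.16% of all genes for lower values and 2.21% for higher, so nothing is read from that.

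Genes of the recombination route to telomere maintenance, which tumours without telomerase use, differed little. Of 12 listed, 6 passed, with 1 lower, 4 higher, 1 equal and a median of 0.08, against 48.0% lower and 0.01 for all genes. With 6 genes nothing is read from that count. ATRX, the chromatin remodeller lost in many such tumours, was at 8.44 with control siRNA and 8.82 with MYCN siRNA. ASF1A, a histone chaperone, was lowest at −0.01, and RAD52 was at 6.94 in both.

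Factors known to act on the TERT promoter also showed small differences. Of 17 listed, 13 passed, with 8 lower and 5 higher and a median of −0.08, against 48.0% lower and 0.01 for all genes. None passed 2-fold, which 1.16% of all genes did for lower values and 2.21% for higher. With 13 genes nothing is read from that. MAX, the partner of MYC proteins on the E-box, was lowest, at 6.36 with control siRNA and 6.03 with MYCN siRNA. MXD1, which competes for MAX and represses TERT, was highest, at 7.59 and 8.04 (0.45). MYC itself was at 4.58 and 4.85, next to the array medians. It was counted as higher but passed through the MYCN siRNA array alone, so its direction is not read. SP1, which binds the GC boxes, was at 9.51 and 9.44.

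The other stem cell and self-renewal genes had no common direction. Of 25 listed, 16 passed, with 8 lower and 8 higher and a median of −0.06 (0.00 after loess). This is near the split of all genes, of which 48.0% were lower with a median of 0.01. LGR5, a receptor of R-spondins, was the member past 2-fold, with a difference of −2.27, and 1.16% of all genes were at least 2-fold lower. NES, the filament protein of neural progenitors, was highest, at 6.97 with control siRNA and 7.95 with MYCN siRNA (0.98). It passed 2-fold after median centring, at 1.03. SOX2 was at 5.40 and 5.22 and POU5F1 at 5.66 and 5.47, both pluripotency factors near the array medians. NANOG lay below both medians. PRDM14, counted as lower, was at 4.71 and 4.38 and passed through the control array alone, so its direction is not read.

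**Figure D4:**
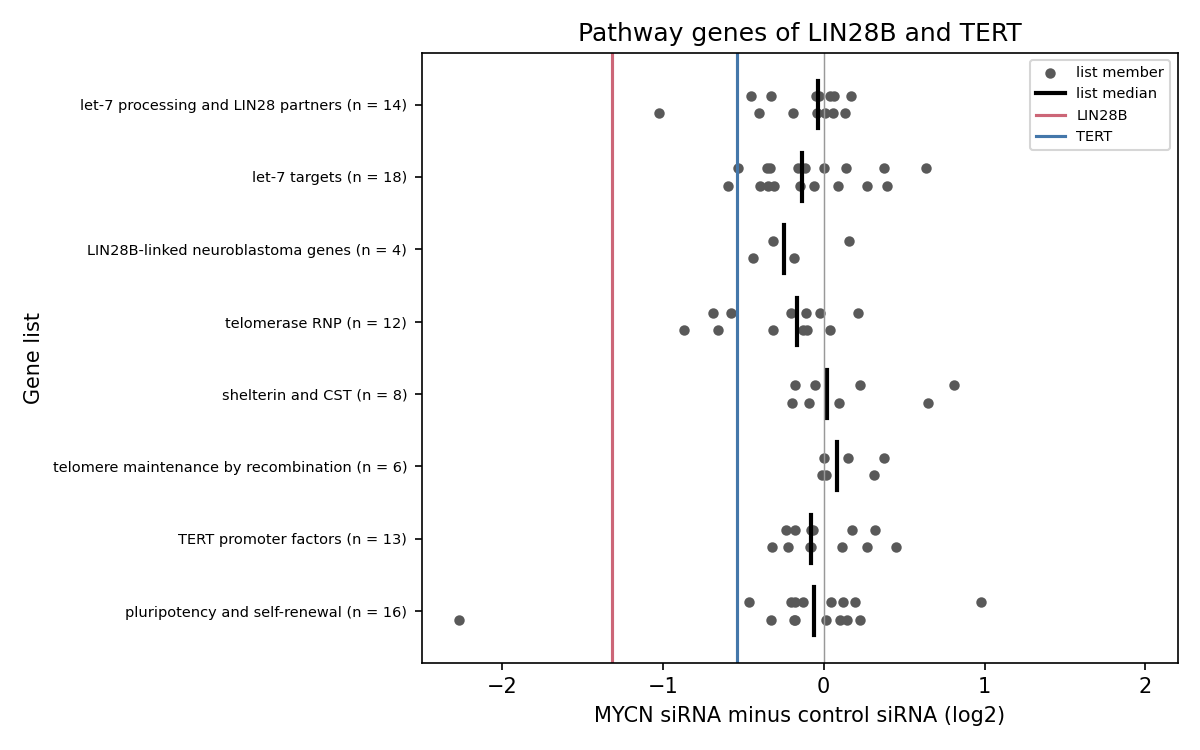
Difference (MYCN siRNA minus control siRNA, log2) of the members of 8 gene lists that passed the filter, 1 point per gene (height within a row has no meaning), with the list median as a black bar and LIN28B and TERT as vertical lines. LGR5 is the single point to the left of the LIN28B line, and no list median lies as low as TERT.

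The genes whose 2 values were most like those of each gene were found by Euclidean distance over the 2 arrays among protein-coding genes that passed the filter. With 2 values per gene this is a likeness of level and difference, over 2 samples. For LIN28B these were HIPK2, a nuclear kinase, at 9.49 and 8.18 (distance 0.01), then RRS1, a ribosome assembly factor, PFAS, an enzyme of purine synthesis, PLPBP and CCDC86, with differences from −1.21 to −1.46. For TERT they were TMEM158 at 5.96 and 5.40 (distance 0.02), RBBP8NL, S1PR1, a receptor of sphingosine 1-phosphate, FXYD6 and CLDN9, with differences from −0.51 to −0.60. The nearest genes to TERT sat in a crowded range, all 5 within 0.05 of it, and those of LIN28B within 0.10.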

How the data were processed

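RNA from 2 cultures was measured on 1-colour arrays, 1 array per group. The deposited values are log2 values that the authors made with RMA, per the submitters' processing notes; the sources used here do not give its settings or version, or whether other arrays were in the run. The title of the control array alone carries the word reanalysis, unexplained in those sources, so whether both arrays were processed alike is not known. RMA as usually run makes arrays alike in distribution, so a change in total RNA per cell cannot be seen. Depth does not apply to arrays; their number limits the precision.

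All 15835 rows with a gene symbol matched RefSeq identifiers (GRCh38.p14), used for current symbols, gene order and sequences; 30420 rows are unnamed here. Probe sets of a gene were averaged, and genes below the 50th percentile of all rows in both arrays were left out. The difference is MYCN siRNA minus control siRNA, counted past 2-fold. Calculations used Python 3.11.15, pandas 2.3.3 and statsmodels 0.14.6, and were tested on simulated data.

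The genes and the 8 lists were chosen with earlier results of these data known. Named by rule were LIN28B and TERT, of each list the highest and lowest member and those past 2-fold, 3 neighbours with values on each side, and the 5 genes nearest in level. Other list members were named after their values were seen, for their known roles. Alternatives were median centring, quantile normalization, loess (span 0.3), the brightest probe set, an offset of 16, no filter and a 70th percentile filter.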

Additional observations from a re-analysis of the deposited data

How the results depend on the processing

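LIN28B was lower and past 2-fold under all 5 alternatives that apply to a single gene, from −1.32 to −1.27. TERT was lower under all 5 and past 2-fold under none, from −0.54 to −0.41. With an offset of 16, which shrinks differences and most of all those of dim genes, the count of genes at least 2-fold higher was 124 in place of 234. With the 70th percentile filter the median of the pluripotency and self-renewal list was 0.12 in place of −0.06, with fewer genes tested. Over 56 list medians under alternatives, 50 kept their sign and 6 changed it, all in 3 lists whose median was between −0.06 and 0.02 as reported (let-7 processing, shelterin and CST, and pluripotency). No paired analysis was possible because each group has 1 array. With 1 array per group no alternative gives the spread between cultures.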
